A study of Mus musculus with 6 samples.

Results

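The 73 genes described here are the mitochondrial protein import machinery and the mitochondrial carriers of mouse CD8+ T cells. They were chosen by name, as every gene whose name in the 6 per-library transcript files begins with Tomm, Timm or Slc25a, leaving out pseudogene names and Slc25a1, and make up 73 of the 54446 genes in those files. By role, 9 belong to the translocase of the outer membrane (TOM), 6 to the presequence translocase of the inner membrane and its motor (TIM23), 7 to the small TIM chaperones of the intermembrane space and 2 to the carrier translocase (TIM22). A further 46 are carriers of the SLC25 family, and the last 3 are Tomm34 (a cytosolic co-chaperone), Timmdc1 (a complex I assembly factor) and Tomm6os (an antisense RNA of Tomm6). The first 4 classes, 24 genes, are called translocases below.

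CD8+ T cells came from the spleens of C57BL/6 wild-type mice aged 8 weeks and were isolated by negative selection. Unstimulated cells were fresh, Control cells were stimulated for 72 h on plates coated with antibodies to CD3 and CD28, without magnets, and SMF cells had the same stimulation on permanent magnets with a static magnetic field of 0.3 T. Each group had 2 libraries of total RNA, made with a stranded low-input kit, and nothing in the sources used here says whether the 2 came from separate mice or cultures, so every p-value measures only the spread between these samples. Values are FPKM (fragments scaled to the length of the transcript and to all mapped fragments of the library), summed over the transcripts of a gene. FPKM is per length, so levels of different genes can be set side by side.

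Nearly all mitochondrial proteins are made in the cytosol and enter through the TOM channel. Proteins with a cleavable presequence pass on to TIM23, whose motor pulls them into the matrix, whereas the many-spanning carriers are chaperoned across the intermembrane space by the small TIM proteins and inserted by TIM22. The carriers then exchange ATP for ADP, take up phosphate and move metabolites, cofactors and iron across the inner membrane. Activated T cells are known to enlarge their mitochondrial mass as they begin to divide.

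Some properties of the libraries touch every result. Covered bases summed over transcripts came to between 64.4 and 259 Mb per library, and the Control and Unstimulated libraries numbered 1 (64.4 and 67.4 Mb) were the shallowest, with 21 and 20 members listed at 0 against 11 to 14 in the other 4 libraries. Folder dates in the file headers put the libraries numbered 1 of Unstimulated and Control in June 2017, those numbered 2 in November 2017 and both SMF libraries in October 2018. Both SMF libraries were also the deepest, at 259 and 227 Mb against 172 Mb or less in the others. The field, the folder date and the depth therefore cannot be told apart in either SMF comparison. In all 6 libraries some genes lying opposite an abundant gene carried more signal than that gene. Gm37376, opposite Malat1, held 68.6 to 90.5 times the FPKM of Malat1 in Unstimulated and Control libraries and 25.7 and 35.9 times in SMF libraries (a pair chosen after its values were seen). Exons lying across from an exon on the other strand, called facing exons here, took 52.7% to 56.6% of all covered bases in Unstimulated and Control libraries and 31.3% and 32.8% in SMF libraries. An overlap of 1 base was enough for the whole exon to count, so not all of these bases lie across from another exon. Values without facing exons leave such exons out whole. Protein-coding genes held 49.1% to 50.5% of the summed FPKM in Unstimulated and Control libraries and 69.2% and 68.7% in SMF libraries. These shares moved with the SMF comparisons, and their part in the results below was not tested beyond the settings given. Markers of T cells (Cd3d, Cd3e, Cd3g, Cd8a, Cd8b1) were present in every library, summing to 521 and 632 FPKM in Unstimulated, 271 and 441 in Control and 748 and 629 in SMF libraries. The 4 B cell markers summed to 142 and 103 FPKM in Unstimulated libraries, 23.3 and 7.63 in Control and 4.50 and 2.43 in SMF. The 4 myeloid markers summed to 116 and 141 FPKM in Unstimulated libraries and to 41.1 to 53.8 in the others, where Csf1r made up nearly all of the sum and Lyz2 was listed at 0. Both NK cell markers were listed at 0 in the stimulated libraries and summed to 13.8 and 7.66 FPKM in Unstimulated libraries. Cd4 reached at most 4.68 FPKM, and the 5 erythroid markers summed to at most 21.8 FPKM. The part of other cell types in the comparisons with Unstimulated cells was not tested, and in bulk RNA fewer cells of a type and less RNA per cell cannot be told apart.

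Promoter sequence was looked at as a property that the choice of genes did not use. RefSeq windows of 300 bases (250 before and 50 after the annotated start, GRCm38.p6) were found for 59 of the 73 members. The 3 motifs searched, known from nuclear genes of mitochondrial proteins and read on both strands, were the NRF1 core GCGCANGCGC, where N is any base, the E-box CACGTG bound by MYC and related factors, and the ETS core CCGGAAG. None of the 3 motifs contains another. The ETS core was in a window of 17 members (28.8%) against 9.93% of 27025 genes, the E-box in 12 (20.3%) against 8.09%, and the NRF1 core in 4 (6.78%) against 5.19%. By class, 8 of 21 translocases (38.1%) and 7 of 35 carriers (20.0%) held the ETS core. A match describes these letters in this window only. The windows of 4 members, chosen after their values were seen and each holding a match, are shown with matches in capitals. They are the central TOM receptor Tomm22, the TIM23 channel subunit Timm23, the small TIM chaperone Timm9 and the phosphate carrier Slc25a3. They do not stand for the members with the largest changes. The windows of Tomm40, Tomm5, Timm17a, Timm44, Timm50 and Slc25a5, whose changes are given below, held none of the 3 motifs.
Tomm22, chr15:79670618-79670917, plus strand: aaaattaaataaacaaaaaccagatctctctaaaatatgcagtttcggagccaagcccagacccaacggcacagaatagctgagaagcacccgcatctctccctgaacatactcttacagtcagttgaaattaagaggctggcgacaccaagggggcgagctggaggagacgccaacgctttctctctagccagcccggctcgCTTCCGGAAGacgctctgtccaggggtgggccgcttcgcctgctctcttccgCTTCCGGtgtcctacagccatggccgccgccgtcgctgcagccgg
Timm23, chr14:32201842-32202141, minus strand: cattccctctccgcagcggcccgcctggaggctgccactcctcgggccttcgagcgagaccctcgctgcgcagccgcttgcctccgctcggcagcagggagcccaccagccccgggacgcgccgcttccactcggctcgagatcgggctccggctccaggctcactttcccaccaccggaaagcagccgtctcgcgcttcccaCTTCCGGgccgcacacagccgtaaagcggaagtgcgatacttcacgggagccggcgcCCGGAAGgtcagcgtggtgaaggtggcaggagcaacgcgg
Timm9, chr12:71136626-71136925, minus strand: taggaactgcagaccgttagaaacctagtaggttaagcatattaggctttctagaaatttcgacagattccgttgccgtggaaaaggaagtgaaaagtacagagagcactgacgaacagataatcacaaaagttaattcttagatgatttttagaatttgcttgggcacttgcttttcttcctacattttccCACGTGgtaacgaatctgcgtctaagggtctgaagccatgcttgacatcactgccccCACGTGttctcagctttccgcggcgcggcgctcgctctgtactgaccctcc
Slc25a3, chr10:91123918-91124217, minus strand: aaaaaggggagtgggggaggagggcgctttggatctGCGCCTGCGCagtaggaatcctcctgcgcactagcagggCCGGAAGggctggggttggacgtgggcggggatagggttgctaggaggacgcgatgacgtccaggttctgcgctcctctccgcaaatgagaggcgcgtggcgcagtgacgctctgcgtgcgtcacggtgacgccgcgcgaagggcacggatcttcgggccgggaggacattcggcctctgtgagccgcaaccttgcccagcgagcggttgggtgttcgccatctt
Tomm22 had ETS cores on both strands, 2 of them overlapping in 1 palindrome, and Timm23 had 1 on each strand. Timm9 held a pair of E-boxes, and Slc25a3 was the only one of these 4 with an NRF1 core, upstream of its ETS core. The window of the oxoglutarate carrier Slc25a11 is shown for another reason, since it held none of the motifs.
Slc25a11, chr11:70646990-70647289, minus strand: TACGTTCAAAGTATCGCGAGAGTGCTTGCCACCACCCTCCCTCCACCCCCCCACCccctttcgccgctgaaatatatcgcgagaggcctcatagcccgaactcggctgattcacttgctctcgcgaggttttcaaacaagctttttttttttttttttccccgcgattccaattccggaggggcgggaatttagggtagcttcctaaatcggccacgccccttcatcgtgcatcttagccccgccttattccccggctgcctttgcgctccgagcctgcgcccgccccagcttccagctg
Its capitals mark 55 bases that are also an exon of Rnf167, a gene that starts in the opposite direction, and 295 of the 300 bases belong to the RefSeq window of Rnf167 as well. The exon of Slc25a11 just upstream of this window is the one that carried most of its FPKM.

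Levels of the members were led by few genes. Of the 73, 42 were above 0 in all 6 libraries, 22 reached a mean of 10 FPKM, and 3 were listed at 0 throughout. These 3 were the ADP/ATP carrier Slc25a31, known from testis, the orphan carrier Slc25a48 and the small TIM gene Timm8a2. An exact 0 in these files can be a failed estimate, because genes that every cell uses, such as Timm10 and Tomm7, were listed at 0 in some libraries. All members together took 0.131% and 0.131% of the summed FPKM in Unstimulated libraries, 0.132% and 0.154% in Control and 0.345% and 0.304% in SMF libraries. The SMF shares stood above those of the other 4 libraries.

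Summed per class, the translocases were lowest in Unstimulated and highest in SMF libraries. TOM genes summed to 75.9 and 60.9 FPKM in Unstimulated libraries, 120 and 132 in Control and 336 and 303 in SMF. TIM23 genes summed to 37.8 and 40.4, then 61.3 and 96.6, then 194 and 166 FPKM. Small TIM genes summed to 36.2 and 32.5, then 51.4 and 64.6, then 136 and 96.9 FPKM. In these 3 classes no library of one group reached into another group's range. TIM22 genes were far lower, at 3.50 and 4.36 FPKM in Unstimulated, 1.68 and 6.74 in Control and 24.04 and 16.4 in SMF libraries, and the Control pair spanned the Unstimulated pair. The 46 carriers summed to 423 and 466 FPKM in Unstimulated libraries, 399 and 480 in Control and 937 and 851 in SMF. Without Slc25a11 the carriers summed to 179 and 238, 303 and 402, and 887 and 819 FPKM, so that the overlap of Unstimulated and Control rested on that gene.

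**Figure D1:**
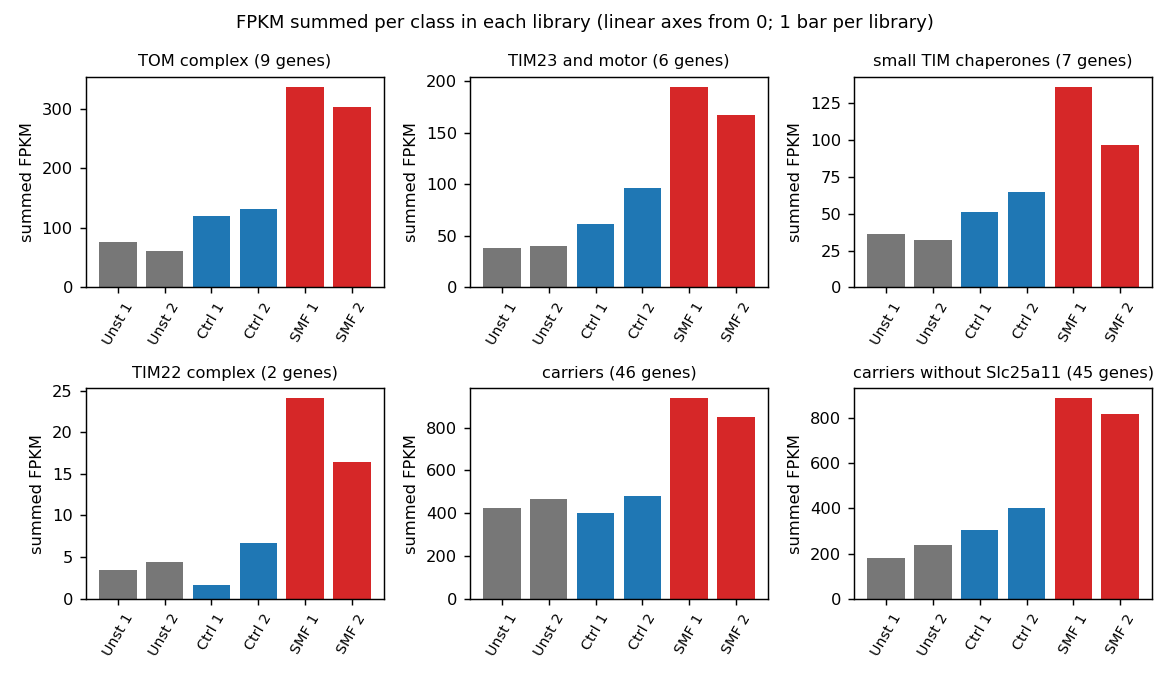
FPKM summed over the genes of each class, 1 bar per library, on linear axes from 0 (grey Unstimulated, blue Control, red SMF). The 3 larger translocase classes step up from Unstimulated to Control to SMF, and the carriers do so once Slc25a11 is left out (179 and 238, 303 and 402, 887 and 819).

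Comparisons were made gene by gene with limma on log2(FPKM + 1), in 1 fit of all 14991 genes whose 6 values averaged 1 FPKM or more. A gene was called when the fold change of FPKM + 1 was at least 2 and the unadjusted p at most 0.05, the limits of the study. Benjamini-Hochberg adjusted p-values over all genes tested are given beside the calls. Fold changes on this scale understate the change of low genes. Of the 73 members 60 were tested (22 translocases, 35 carriers and the other 3), and 5 of the 60 had a mean under 1 FPKM over the Unstimulated and Control libraries, so that they were tested only through their SMF values. These 5 were Slc25a10, Slc25a12, Slc25a15, Slc25a42 and Timm22. The 3 comparisons share libraries, so their values stand side by side.

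Stimulation without magnets (Control against Unstimulated) was the first question. Of the 60 members tested, 11 were called higher and 1 lower, where 12.3% of all genes tested were called higher and 12.6% lower. The translocases gave 6 of the calls (Tomm40, Tomm70a, Tomm7, Timm44, Timm50 and Timm8a1), with none lower among 22 tested and a median log2 fold change of 0.68, against -0.05 for all genes tested. Of the 35 carriers 5 were called higher, among them Slc25a3, Slc25a5, Slc25a13 and Slc25a35, and 1 lower (Slc25a11), with a median of -0.31. The 2 classes lay closer among members with no facing exon, with medians of 0.54 for 12 translocases and 0.39 for 25 carriers. Protein-coding genes with several exons and no facing exon had a median of 0.03. An adjusted p of at most 0.05 was reached by 4 members, among them Tomm40, Slc25a5 and Slc25a11, the last of which is read below with its exons. Over all genes tested, 4.48% passed that limit and the fold of 2 in the upward and 3.95% in the downward direction. With the replicate number as a block, which for these groups also marks the folder date, 12 were called higher and 2 lower. The count of 11 fell to 5 without the Control library numbered 2 and to 7 without either SMF library.

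In the outer membrane, Tomm40, Tomm70a and Tomm7 were called. Tomm40 forms the pore of the TOM complex (chr7:19701313-19715438, minus strand, GRCm38) and held 7.28 and 5.69 FPKM in Unstimulated and 31.9 and 25.98 FPKM in Control libraries (log2 fold change 2.0 ± 0.36, SE, adjusted p = 0.0275). The groups were well apart. Tomm70a, the receptor that takes carrier precursors from cytosolic chaperones, held 8.92 and 8.27 FPKM in Unstimulated and 26.9 and 20.2 FPKM in Control libraries (log2 fold change 1.34 ± 0.34, SE, adjusted p = 0.0635), although 49.9% to 59.7% of its covered bases lay in exons facing Nit2. The small subunit Tomm7 was listed at 0 and at 2.25 FPKM in Unstimulated libraries and held 3.26 and 9.46 FPKM in Control (log2 fold change 1.89 ± 0.74, SE, adjusted p = 0.171). Its call was lost with these 2 groups alone, with gene TPM, with no filter on low values and with a pseudocount of 0.1. With 1 library left out, Tomm7 stayed called only where that library was Unstimulated replicate 2. Tomm22 and Tomm5 did not separate the groups: Tomm22, the central receptor, held 35.99 and 16.6 FPKM in Unstimulated and 29.96 and 27.3 FPKM in Control, and Tomm5, a small subunit, 9.01 and 16.7 FPKM in Unstimulated and 7.41 and 23.6 FPKM in Control. For Tomm20, the presequence receptor, the values were 1.47 and 4.29 FPKM in Unstimulated and 3.04 and 5.82 FPKM in Control libraries, which overlap. Tomm6 (8.57 and 0, then 14.6 and 18.01 FPKM) was not called, and it lies opposite Tomm6os, whose own values were 30.7 and 21.7 FPKM in Unstimulated and 43.8 and 39.03 FPKM in Control with all covered bases in facing exons. Tomm40l, a relative of Tomm40, held 4.696 and 2.39 FPKM in Unstimulated and 2.97 and 1.39 FPKM in Control, and Tomm20l was above 0 in 1 library alone, at 4.64 FPKM in Unstimulated replicate 2.

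In the inner membrane the calls fell on the receptor and the motor anchor of TIM23. Timm50, which receives presequences as they leave TOM, held 6.52 and 10.6 FPKM in Unstimulated and 13.2 and 31.9 FPKM in Control libraries (log2 fold change 1.21 ± 0.50, SE, adjusted p = 0.185). Timm44, which tethers the mitochondrial Hsp70 to the channel, held 7.52 and 11 FPKM in Unstimulated and 17.8 and 40.9 FPKM in Control (log2 fold change 1.47 ± 0.47, SE, adjusted p = 0.111). For both, the Control libraries stood above the Unstimulated ones but lay far from each other. Neither call held when the fit had the libraries of these 2 groups alone. With 1 library left out, both held only where that library was Control replicate 1. The call of Timm50 was also lost with gene TPM, with either sum as the scale and with a pseudocount of 0.1. The channel subunits were not called: Timm23 held 17.3 and 8.28 FPKM in Unstimulated and 14.9 and 12.3 FPKM in Control, and its partner Timm17a 1.097 and 1.47 FPKM in Unstimulated and 1.71 and 1.76 FPKM in Control. Timm21, which links TIM23 to the respiratory chain, held 5.29 and 6.37 FPKM in Unstimulated and 11.9 and 6.57 FPKM in Control, and Timm17b 0 and 2.71 FPKM in Unstimulated and 1.802 and 3.18 FPKM in Control. Among the small TIM chaperones only Timm8a1 was called, at 0 and 1.71 FPKM in Unstimulated and 5.78 and 4.64 FPKM in Control libraries (log2 fold change 1.91 ± 0.62, SE, adjusted p = 0.113). That call too was lost when the fit had these 2 groups alone. With 1 library left out, Timm8a1 stayed called only where that library was Unstimulated replicate 2. Timm8b reads differently by exon: its log2 fold change was 0.00 ± 0.62 (SE), but all covered bases in Unstimulated libraries lay in facing exons, and without them it stood at 0 there and at 6.67 and 7.35 FPKM in Control, so no fold is given.

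Among the carriers, the ADP/ATP carrier Slc25a5 and the phosphate carrier Slc25a3 rose. Slc25a5, also ANT2, the isoform of dividing cells (chrX:36795651-36798807, plus strand, GRCm38), held 19.7 and 31.4 FPKM in Unstimulated and 73.3 and 105 FPKM in Control libraries (log2 fold change 1.78 ± 0.33, SE, adjusted p = 0.0304). Slc25a3, the phosphate carrier, held 30.8 and 58.8 FPKM in Unstimulated and 93.4 and 107 FPKM in Control (log2 fold change 1.21 ± 0.35, SE, adjusted p = 0.0866). Its call was lost when either Control library or Unstimulated replicate 1 was left out. Slc25a4, the isoform ANT1 best known from muscle and heart, held 20.8 and 10.7 FPKM in Unstimulated and 24.6 and 29.4 FPKM in Control and was not called (log2 fold change 0.81 ± 0.39, SE, adjusted p = 0.248). Together these 3 took 16.8% and 21.6% of the FPKM of all carriers in Unstimulated libraries and 47.9% and 50.2% in Control. Part of that step lay in Slc25a11, whose share went from 57.7% and 49.0% to 24.1% and 16.2%. Slc25a13, the aspartate/glutamate carrier citrin, was listed at 0 in both Unstimulated libraries and held 2.398 and 1.93 FPKM in Control, so no fold is given. Slc25a35, an orphan carrier, held 8.92 and 8.46 FPKM in Unstimulated and 17.9 and 35.04 FPKM in Control. However, 98.7% to 100% of its covered bases lay in exons facing Rangrf, and whether they came from Rangrf was not tested.

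**Figure D2:**
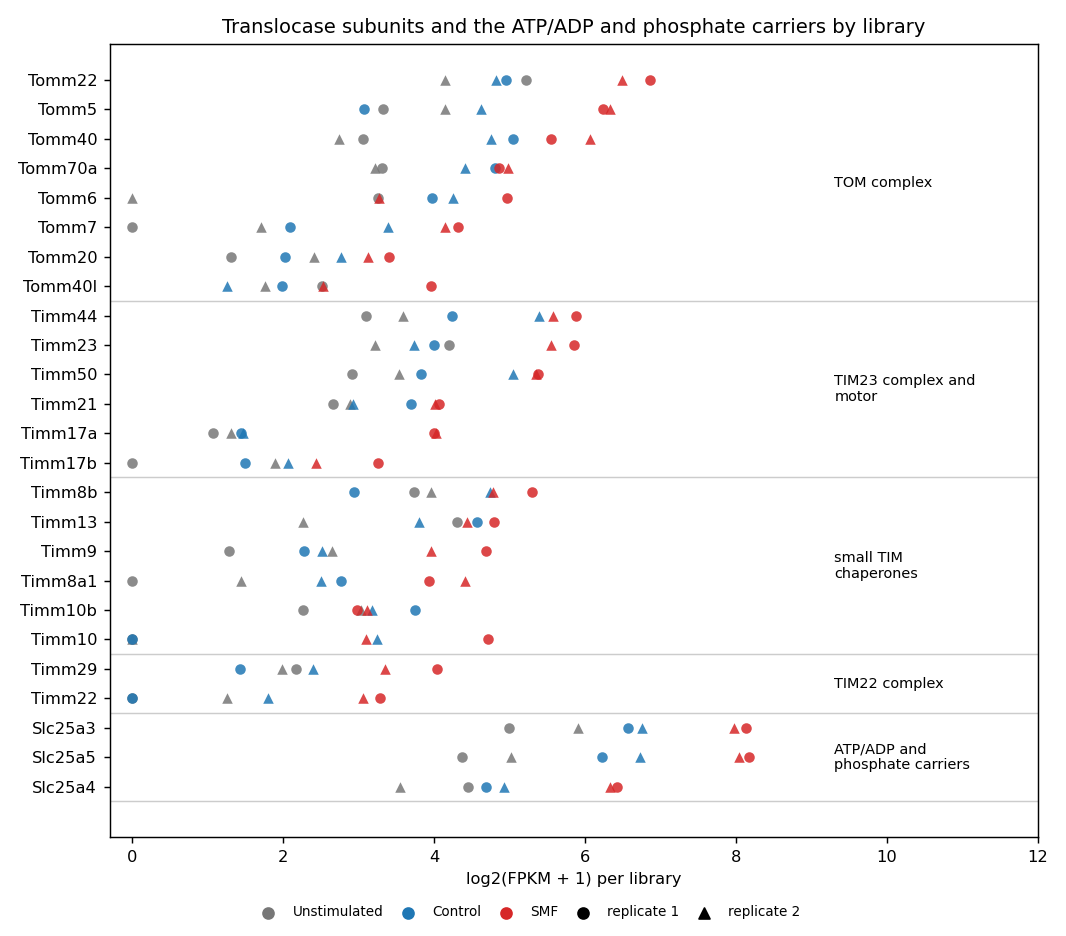
Levels of the 22 tested translocase genes and the 3 expressed ATP/ADP and phosphate carriers, as log2(FPKM + 1), 1 point per library (grey Unstimulated, blue Control, red SMF, circles replicate 1, triangles replicate 2). Both SMF libraries lie above both Control libraries for 18 of the 22 translocase genes (37.4% of all genes tested), the exceptions being Timm10, Timm10b, Timm13 and Tomm6, and for 1 of the 18, Timm8b, the order turns without facing exons.

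Stimulation in the field against stimulation without it (SMF against Control) addresses the question of the study, whether a static field of 0.3 T changes gene expression in stimulated CD8+ T cells. As deposited, 19 of the 60 members were called higher and 1 lower, where 12.5% of all genes tested were called higher and 5.72% lower. No member reached an adjusted p of 0.05 (limma, lowest 0.136, for Timm17a), and 21 were under an unadjusted p of 0.05. Over all genes tested 0.02% and 0.00667% passed the adjusted limit and the fold of 2, higher and lower. SMF values stood wholly above Control values for 37 members (37.4% of all genes tested) and wholly below for 3 (17.4%). Called higher were 8 of 22 translocases, with a median log2 fold change of 1.34 and 21 of 22 above 0 (60.2% of all genes), and 11 of 35 carriers, with a median of 0.81. The median over all genes tested was 0.32. The count depended on single libraries, at 8 without SMF replicate 1 and 9 without Control replicate 1. Leaving out the 5 members tested only through their SMF values left 16 called of 55.

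The calls in this comparison depended on how the libraries were scaled. Protein-coding genes with several exons and no facing exon, 6549 of those tested, had a median log2 fold change of 0.71 with 18.4% called higher, and of the 39 tested members with no facing exon 17 were called higher, with a median of 1.29. When the libraries were set to 1 median, 14 members were called higher (5.85% of all genes) and the median of the members was 0.58, and a common sum over protein-coding genes gave 14 as well (6.21% of all genes) with a median of 0.69. When they were set to 1 sum over all 15600 annotated genes of that kind, tested or not, only Tomm5, Timm17a and Slc25a14 were called higher (2.19% of all genes) and 3 lower (14.1%), among them Slc25a11 and Tomm6os. The median of the members was then 0.44, and that of all genes tested turned to -0.17. The last scaling was chosen after the data were seen. Of the 3 called higher under it, Slc25a14 was listed at 0 in both Control libraries, which can be failed estimates. In Unstimulated libraries it held 4.32 and 0 FPKM.

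**Figure D3:**
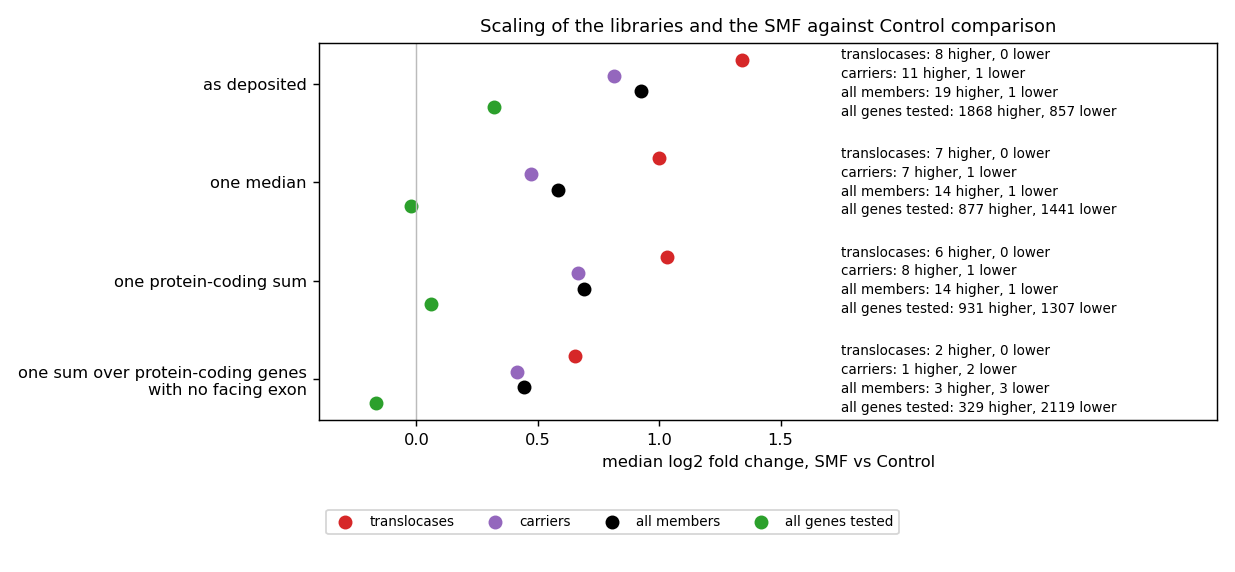
Median log2 fold change from Control to SMF (horizontal axis) under 4 scalings of the libraries (rows), for translocases, carriers, all members and all genes tested, with the numbers of genes called at the right. Translocases keep the highest median in each row, from 1.34 down to 0.65, while the number of members called higher goes from 19 to 3 and the median of all genes from 0.32 to -0.17.

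By role, the TOM receptor and a small subunit moved most in the outer membrane. Tomm22, the central receptor whose promoter is shown above, held 29.96 and 27.3 FPKM in Control and 115 and 89.02 FPKM in SMF libraries (log2 fold change 1.79 ± 0.42, SE, adjusted p = 0.144). Tomm5 (chr4:45105208-45108114, minus strand, GRCm38) held 7.41 and 23.6 FPKM in Control and 74.2 and 79.5 FPKM in SMF (log2 fold change 2.44 ± 0.58, SE, adjusted p = 0.145), and it was one of the 3 members called higher under each of the 4 scalings. Its Control libraries lay far apart. The other TOM genes were not called: Tomm40 held 45.8 and 66.1 FPKM in SMF libraries (log2 fold change 0.91 ± 0.36, SE, adjusted p = 0.226) and Tomm70a 28.01 and 30.4 FPKM (log2 fold change 0.31 ± 0.34, SE, adjusted p = 0.621). Tomm7 held 18.9 and 16.7 FPKM and Tomm20 9.56 and 7.74 FPKM, in each case above both Control libraries. Tomm6 (30.3 and 8.64 FPKM) straddled its Control values, and Tomm40l (14.6 and 4.76 FPKM) lay above them without being called. The cytosolic factor Tomm34 was called in no comparison, at 17.6 and 27.7 FPKM in Unstimulated, 25.1 and 15.6 in Control and 24.2 and 25.2 in SMF libraries, with log2 fold changes of -0.15 ± 0.40 and 0.31 ± 0.40 (SE) from group to group.

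In the inner membrane the channel subunits, and not the receptor, were called. Timm17a (chr1:135295213-135313778, minus strand, GRCm38) held 1.097 and 1.47 FPKM in Unstimulated, 1.71 and 1.76 in Control and 14.9 and 15.3 in SMF libraries (log2 fold change 2.56 ± 0.47, SE, adjusted p = 0.136), the lowest adjusted p among the members in this comparison, and it too was called under each scaling. Within each group its libraries nearly coincided. A single transcript held 100% of its FPKM in each library, and it faces no other gene, though a near-identical copy, Gm7180, is annotated. Its paralogue Timm17b held 8.51 and 4.38 FPKM in SMF libraries (log2 fold change 1.06 ± 0.78, SE, adjusted p = 0.464). Timm17b faces Gm10491, with 100% of its covered bases in facing exons in Control replicate 1 and 23.5% to 27.7% in Control replicate 2 and the SMF libraries. Timm23, the channel subunit, held 14.9 and 12.3 FPKM in Control and 56.6 and 45.5 FPKM in SMF libraries (log2 fold change 1.83 ± 0.43, SE, adjusted p = 0.144), with 6 near-identical copies annotated, among which reads could be split. The receptor Timm50 held 40.5 and 39.7 FPKM in SMF libraries and the motor anchor Timm44 57.7 and 46.6 FPKM, with log2 fold changes of 0.93 and 0.91, not called. Timm21 reached 15.8 and 15.1 FPKM.

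Both TIM22 genes were called higher, from low levels, but Timm22 was tested only through its SMF values, so its call had to point that way. Timm22, the channel for carriers, was listed at 0 and at 2.49 FPKM in Control and held 8.72 and 7.31 FPKM in SMF libraries (log2 fold change 2.27 ± 0.82, SE, adjusted p = 0.206). Timm29, its partner subunit, held 1.68 and 4.26 FPKM in Control and 15.3 and 9.13 FPKM in SMF (log2 fold change 1.78 ± 0.55, SE, adjusted p = 0.178). Among the small TIM chaperones, which escort carriers to TIM22, Timm9 held 3.85 and 4.702 FPKM in Control and 24.7 and 14.5 FPKM in SMF (log2 fold change 1.93 ± 0.60, SE, adjusted p = 0.179), with exons that face Tomm20l, and Timm8a1 5.78 and 4.64 FPKM in Control and 14.3 and 20.2 FPKM in SMF (log2 fold change 1.54 ± 0.62, SE, adjusted p = 0.232). Timm10, which forms rings with Timm9, was listed at 0 in both Unstimulated libraries and in Control replicate 1, and held 8.49 FPKM in Control replicate 2 and 25.2 and 7.52 FPKM in SMF. Timm13, the partner of Timm8a1, held 22.7 and 12.9 FPKM in Control and 26.8 and 20.6 FPKM in SMF, and Timm10b, a TIM22-bound relative, 12.4 and 8.06 FPKM in Control and 6.84 and 7.598 FPKM in SMF, with 44.8% to 100% of its covered bases in facing exons. Timm8b held 38.2 and 26.4 FPKM in SMF libraries, above both Control libraries, and was not called. Of its covered bases in SMF libraries 84.7% and 90.1% lay in facing exons, and without them its order turned, with SMF values of 5.83 and 2.61 FPKM below Control values of 6.67 and 7.35 FPKM (log2 fold change -0.69, not called). Timmdc1, the complex I assembly factor, held 3.26 and 1.098, then 3.96 and 4.85, then 7.41 and 11.8 FPKM in Unstimulated, Control and SMF libraries.

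**Figure D4:**
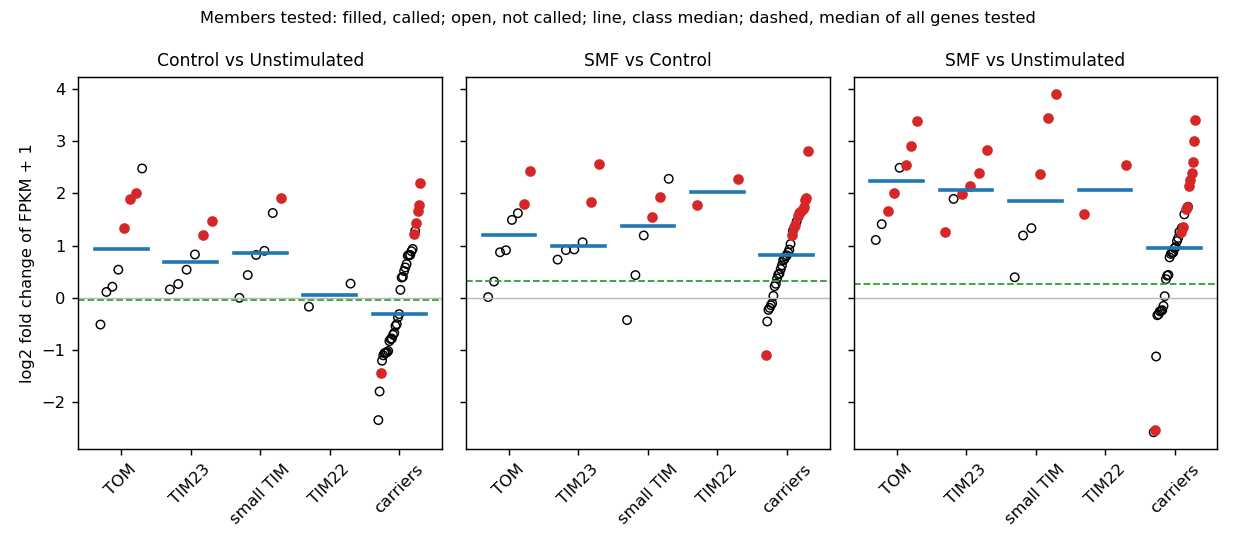
Log2 fold change of FPKM + 1 for each tested member by class in the 3 comparisons, filled where called, with the class median as a blue line and the median of all genes tested dashed. In each comparison the medians of TOM, TIM23 and small TIM genes lie above that of the carriers and of all genes tested, and Slc25a11 is the only member called lower. In Control against Unstimulated, translocases and carriers with no facing exon had closer medians (0.54 and 0.39).

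The 3 expressed carriers of ATP, ADP and phosphate were called higher in SMF libraries. Slc25a5 held 288 and 262 FPKM in SMF libraries (log2 fold change 1.64 ± 0.33, SE, adjusted p = 0.136), Slc25a3 280.3 and 250.3 FPKM (log2 fold change 1.40 ± 0.35, SE, adjusted p = 0.15) and Slc25a4 84.9 and 79.4 FPKM (log2 fold change 1.57 ± 0.39, SE, adjusted p = 0.148). All SMF values lay above all Control values. With 1 sum over protein-coding genes that face no other gene, the log2 fold changes of Slc25a5 and Slc25a3 were 0.89 and 0.65, under the limit. The 3 genes took 69.7% and 69.6% of the carriers' FPKM in SMF libraries. The ratio of Slc25a5 to Slc25a4 was 0.945 and 2.94 in Unstimulated, 2.98 and 3.56 in Control and 3.39 and 3.305 in SMF libraries, and the Control pair spanned the SMF pair. Slc25a3 and Slc25a5 were level in SMF, at ratios of 0.974 and 0.954. Slc25a5 has 3 near-identical copies annotated, and reads could be split among them. Copies are annotated for other members too, among them Tomm20, Tomm22, Timm8a1, Timm21, Slc25a36 and Slc25a20, the last with 19. A match of 200 bases was enough for a copy.

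Other carriers called higher in SMF were lower in level. Slc25a36, a carrier of pyrimidine nucleotides, held 3.81 and 6.99 FPKM in Control and 19.9 and 16.6 in SMF libraries (log2 fold change 1.63 ± 0.46, SE, adjusted p = 0.167), and Slc25a39, the glutathione carrier, 6.602 and 9.38 FPKM in Control and 20.4 and 18.7 FPKM in SMF (log2 fold change 1.21 ± 0.43, SE, adjusted p = 0.204). Slc25a36 had stood at 7.68 and 12.2 FPKM in Unstimulated cells, below its SMF values, and was not called in SMF against Unstimulated. Slc25a32, the folate and FAD carrier, held 1.32 and 1.87 FPKM in Control and 8.43 and 6.46 FPKM in SMF, and Slc25a13 2.398 and 1.93 FPKM in Control and 7.13 and 6.96 FPKM in SMF. The remaining calls were of carriers at or under 2 FPKM in Control. They were Slc25a12, the aspartate/glutamate carrier aralar, Slc25a14, an uncoupling-like protein listed at 0 in both Control libraries and at 5.09 and 7.004 FPKM in SMF, Slc25a15, an ornithine carrier, and Slc25a28, mitoferrin 2, with SMF values from 2.49 (Slc25a15) to 8.92 FPKM (Slc25a12). Slc25a17, a peroxisomal member of the family, held 7.64 and 13.9 FPKM in Control and 18.4 and 16.9 FPKM in SMF. Slc25a20, the carnitine/acylcarnitine carrier, held 3.16 and 5.26, then 7.91 and 8.11, then 15.2 and 8.29 FPKM, and Slc25a35 reached 34.7 and 26.7 FPKM.

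Slc25a11 was the single member called lower, in all 3 comparisons, and its exons bear on that call directly. Its gene sum was 244 and 229 FPKM in Unstimulated, 96.3 and 77.95 in Control and 50.1 and 32.2 in SMF libraries, with log2 fold changes of -1.44 and -1.09 in the first 2 comparisons and adjusted p of 0.041 and 0.166. Most of it sat in 1 of its annotated transcripts, at 230 and 225, then 73.4 and 55.5, then 31.9 and 21.7 FPKM. That was 94.0% and 98.2% of the gene in Unstimulated, 76.2% and 71.1% in Control and 63.6% and 67.6% in SMF libraries. Within that transcript all coverage lay on 1 exon of 189 bases, chr11:70647291-70647479 (GRCm38, minus strand), which faces an exon of Rnf167. Mean coverage of that exon was 84.5 and 159 reads per base in Unstimulated, 25.1 and 49.0 in Control and 40.4 and 24.2 in SMF libraries, values that are not scaled to depth. The 8 exons of the full-length transcript were at 20.8 reads per base or less in every library. That transcript held 14.7 and 4.05 FPKM in Unstimulated, 9.92 and 6.08 in Control and 15.7 and 8.59 in SMF libraries, which overlap in all groups. Without facing exons Slc25a11 was not called, with log2 fold changes of 0.72 (Control against Unstimulated), -0.43 (SMF against Control) and 0.30 (SMF against Unstimulated). Whether the coverage of the facing exon came from Rnf167 was not tested.

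**Figure D5:**
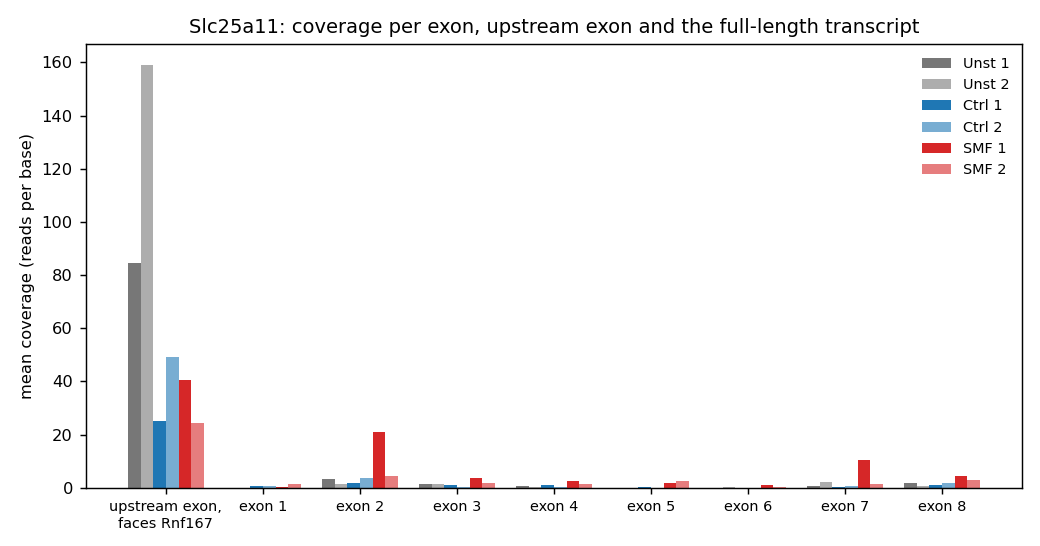
Mean coverage (reads per base, not scaled to depth) of the upstream exon of Slc25a11 that faces Rnf167 and of the 8 exons of its full-length transcript, numbered from its start, 1 bar per library. The upstream exon reaches 24.2 to 159, and the others stay at or under 20.8.

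Members with and without facing exons differed in their sums. The 24 members with facing exons summed to 394 and 364 FPKM in Unstimulated, 329 and 316 in Control and 396 and 339 in SMF libraries. The 49 without summed to 234 and 291, then 377 and 523, then 1290 and 1166 FPKM. Of the sums with facing exons Slc25a11 alone took 244 and 229, then 96.3 and 77.95, then 50.1 and 32.2 FPKM. Those sums therefore do not show how the other members with facing exons moved. Transcript make-up was also unsettled in the leading carrier. Of the FPKM of Slc25a3, an 8-exon transcript took 60.2% and 32.9% in Unstimulated libraries. It took 25.3% and 13.4% in Control and 0.677% and 2.54% in SMF libraries. A 7-exon transcript held 54.8% and 47.4% in SMF libraries, 0% and 34.1% in Control and 20.5% and 6.96% in Unstimulated. A 4-exon transcript held 27.1% and 22.7% in SMF libraries, 66.8% and 32.5% in Control and 0% and 26.5% in Unstimulated. Slc25a5 kept 78.8% to 94.6% of its FPKM in 1 transcript in all 6 libraries. These shares are estimates from the same reads and were not tested.

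Stimulation in the field against fresh cells (SMF against Unstimulated) gave the most calls. Here 26 members were called higher and 1 lower, where 22.4% of all genes tested were called higher and 14.8% lower, and 19 members reached an adjusted p of 0.05 (with the fold of 2, 14.1% of all genes higher and 9.25% lower). All 22 translocases tested had a log2 fold change above 0 (56.8% of all genes), 15 of them were called, and for 21 the SMF values stood above the Unstimulated ones without overlap (39.7% of all genes), Timm10b being the exception. Timm22 is in each of these counts although it was tested only through its SMF values, as was Slc25a12 among the 26, so neither call counts as support. The median of the translocases was 2.07, against 0.95 for the carriers, of which 10 were called higher, and 0.27 for all genes tested. Protein-coding genes with several exons and no facing exon had a median of 0.80, near that of the carriers, with 31.6% called higher. Of the 39 tested members with no facing exon 20 were called higher, with a median of 1.37. Slc25a5 had the lowest adjusted p (log2 fold change 3.41 ± 0.33, SE, adjusted p = 0.00432), followed among the members by Slc25a11 in the other direction (log2 fold change -2.53 ± 0.30, SE, adjusted p = 0.00582) and by Tomm40 (log2 fold change 2.91 ± 0.36, SE, adjusted p = 0.00605). Timm21 (log2 fold change 1.27 ± 0.44, SE, adjusted p = 0.0817), Timm10, Timmdc1, Slc25a17 and Slc25a20 were called in this comparison and in neither of the others. With 1 sum over protein-coding genes that face no other gene, 16 members were called higher, where 10.9% of all genes tested were.

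Of 31 import partners and related channels that are not members by name, 28 were tested. In Control against Unstimulated 9 were called higher and none lower, with a median log2 fold change of 0.55, where 12.3% of all genes tested were called higher and their median was -0.05. In SMF against Control 7 were called higher and 1 lower, with a median of 0.68, against 12.5% of all genes and a median of 0.32. In SMF against Unstimulated 12 were called higher and none lower, against 22.4% of all genes. Hspa9, the Hsp70 of the TIM23 motor, held 23.04 and 41.5 FPKM in Unstimulated, 77.9 and 92.8 in Control and 219.7 and 252 in SMF libraries, and was called in each comparison. Hspd1, the folding chamber Hsp60, held 18.9 and 36.7, then 129 and 165, then 414 and 436 FPKM, and its partner Hspe1 69.8 and 158, then 193 and 209.7, then 363 and 465 FPKM. The groups did not overlap for any of the 3 chaperones. Outer-membrane pores parted: Vdac1 held 10.5 and 16.5 FPKM in Unstimulated, 62.4 and 53.7 in Control and 58.3 and 77.9 in SMF libraries, called in Control against Unstimulated and not in SMF against Control. Vdac3 held 10.9 and 9.93, then 26.2 and 23.2, then 84.9 and 64.9 FPKM and was called in each comparison, and Vdac2 (53.8 and 42.3, then 102 and 92.2 FPKM) in SMF against Control alone. Further calls in Control against Unstimulated were Samm50, which inserts barrel proteins, the peptidase subunit Pmpcb, the oxidase Gfer of the intermembrane space, and the outer-membrane protein Mtch2, and in SMF against Control they were the motor protein Dnajc19 and Mtch1. Chchd4 and Romo1 were called in SMF against Unstimulated only. Mpc1, a subunit of the mitochondrial pyruvate carrier, ran the other way: it held 2.69 and 0.905 FPKM in Unstimulated, 8.19 and 19.01 in Control and 2.07 and 2.81 in SMF libraries, called higher and then lower (log2 fold change -1.99 ± 0.62, SE, adjusted p = 0.179), while the other subunit Mpc2 held 0.445 and 6.58 FPKM in Control and 12.6 and 12.5 FPKM in SMF. Mpc1, Hspd1, Hspe1, Vdac2, Dnajc19 and Romo1 have facing exons. All values of partners given here include such exons.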

How the data were processed

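RNA of 6 CD8+ T cell libraries, 2 in each of 3 groups taken from the sample labels, had been trimmed (Trimmomatic 0.36), aligned (HISAT2) and quantified per transcript (StringTie 1.3.5, GENCODE M19 on GRCm38, per the file headers, with a strand setting) by the authors. The deposited values are FPKM, TPM and coverage (reads per base) per transcript and exon, with no counts, so that sampling error per gene is unknown. Covered bases per library ranged from 64.4 to 259 Mb. A table of the whole series had 3 value columns that matched no sample and were not used.

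FPKM was summed per gene and tested as log2(FPKM + 1) with limma 3.58.1 in R 4.3.3 (variance trend, all groups in 1 fit, 3 residual degrees of freedom, mean of at least 1 FPKM), with a fold of 2 and p of 0.05 as in the study. The test was checked on simulated data with 200 changed genes. Facing exons and near-identical copies (at least 95% identity over 200 bases) were found with bedtools 2.31.1 and minimap2 2.31, and motifs with Python 3.11.15. Named were all tested translocases, the ATP, ADP and phosphate carriers, the 5 further carriers highest in mean FPKM, carriers and partners called in any comparison, and members listed at 0 throughout. Members and lists were chosen with earlier results of these data known. Alternatives changed the pseudocount, filter, unit, scaling, variance model, samples, replicate block and facing exons. Values of 1 member and 1 marker are not reported here.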

Additional observations from a re-analysis of the deposited data

How the results depend on the processing

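Counts of members called moved with single libraries and with scaling, and the cause was not tested. In Control against Unstimulated, 11 were called higher and 1 lower. With the 2 groups alone 7 were called higher and 2 lower, with an adjusted p of at most 0.05 there were 3 higher, and among members with no facing exon 7 higher and 0 lower. No filter on low values, 1 protein-coding sum, 1 sum over protein-coding genes without facing exons, the replicate block and leaving out facing exons each gave 2 lower, and leaving out a library gave 5 to 10 higher and 1 to 3 lower. In SMF against Control, 19 were called higher and 1 lower. A mean of at least 5 FPKM gave 11 higher of only 39 members tested (1432 of 9394 genes), 1 sum over protein-coding genes without facing exons 3 higher and 3 lower, and an adjusted p of at most 0.05 gave 0 higher and 0 lower (limma, 21 at an unadjusted p under 0.05). The number lower was 2 with no filter and 0 with gene TPM, without facing exons and among members with no facing exon, and leaving out a library gave 8 to 21 higher and 0 to 1 lower. In SMF against Unstimulated, 26 were called higher and 1 lower. The sum over protein-coding genes without facing exons gave 16 higher, and leaving out a library 18 to 27 higher and 1 to 2 lower. The number lower was 2 with the 2 groups alone, no filter, 1 median, either sum and the replicate block, and 0 among members with no facing exon. Without facing exons the direction turned for Slc25a11 in Control against Unstimulated (0.72) and SMF against Unstimulated (0.30), for Timm9 in Control against Unstimulated (-0.40) and for Timm8b in SMF against Control (-0.69), all as log2 fold changes. Timm8b in Control against Unstimulated went from -0.00 to 3.0, a size set by the pseudocount because both Unstimulated values were then 0. With the replicate number as a block, 12, 20 and 27 members were called higher and 2, 1 and 2 lower in the 3 comparisons, and 159 of 165 gene values kept their side of the limits. Deviations of the libraries numbered 1 from their group means, correlated over the genes tested, gave 0.096, 0.021 and 0.030 in the 3 comparisons. With 2 libraries a group, those numbered 2 give the same values and add nothing. The labels do not say that the numbers pair samples, although the folder dates of Unstimulated and Control libraries go with them. Settings using facing exons were chosen after seeing the data. With 2 libraries a group and no counts, small differences were not detectable.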
